A study of Mus musculus with 18 samples.

Results

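A set of 8 genes of epithelial repair was followed in sorted mouse colon epithelium: *Ly6a*, *Anxa1* and *Clu*, which mark the fetal-like state of a regenerating gut lining, the epidermal growth factor receptor (EGFR) ligands *Areg*, *Ereg*, *Hbegf* and *Tgfa*, and *Plaur*, the urokinase receptor. They were found by the gene symbol that the array's annotation gives each probe. Of the 8 genes, 7 had a probe under their symbol, with 8 probes in all among the 45281 on the array. *Clu* had none. A total of 6 genes, with 1 probe each, were tested, and both *Ereg* probes stayed below the detection limit that was set for testing.

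Animals were either wild type (WT) or devoid of Mbd2, a protein that binds methylated CpG, in all cells of the body (Mbd2KO), on a C57BL/6 background. The study used age and sex matched mice of 8 to 22 weeks, and ages by group are not given in the sources used here. Mice were left untreated (Naive_WT and Naive_KO) or drank 2% dextran sodium sulfate (DSS), a polymer that damages the gut lining, for 6 days (DSS_WT and DSS_KO). Live cells positive for EpCAM and negative for CD45, CD3 and a macrophage marker were purified by flow cytometry, and each replicate held RNA from 1 to 5 mice by the series' design text (up to 10 by the study's methods, which cover further arrays). Messenger RNA was read on Illumina MouseWG-6 BeadChips, with 5 arrays in each DSS group and 4 in each naive group. The labels do not explain the arrays 4R and 5R. They were taken as repeats of 4 and 5 and averaged with them, which left 4 samples a group, whereas the study's text names as many biological replicates per genotype as a DSS group has arrays. Kept apart, they raised the called probes between DSS_KO and DSS_WT from 189 to 420. Because Mbd2 was missing from all tissues, whether a difference between genotypes arose within the epithelial cells cannot be told. The array's *Mbd2* probe was detected on 0 of 18 arrays, so the genotypes are those of the labels. Nothing in the labels ties replicates to litters, cages or chips, and p-values measure the spread between these samples.

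EGFR ligands are made as membrane proteins. Proteases such as ADAM17 cut them free, and the released ligand drives proliferation and migration of the epithelium through the receptor and the ERK kinases. After injury the colon epithelium turns on genes that are otherwise active in the fetal gut, among them *Ly6a*, which encodes the surface protein Sca-1, and YAP and TEAD are known to act in this switch. Mbd2 binds methylated CpG dinucleotides and recruits repressive complexes.

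Promoter sequence from RefSeq was at hand for 4 of the 8 genes (*Areg*, *Plaur*, *Anxa1* and *Tgfa*). The 250 bases before the start are printed for the first 3, because *Areg* and *Plaur* moved together over the samples and *Anxa1* varied least between groups. Each reads 5′ to 3′ on the strand of its gene, in build GRCm38.p6, and capitals mark the short motifs that were searched for on both strands.
Areg, chr5:91139349-91139598, plus strand: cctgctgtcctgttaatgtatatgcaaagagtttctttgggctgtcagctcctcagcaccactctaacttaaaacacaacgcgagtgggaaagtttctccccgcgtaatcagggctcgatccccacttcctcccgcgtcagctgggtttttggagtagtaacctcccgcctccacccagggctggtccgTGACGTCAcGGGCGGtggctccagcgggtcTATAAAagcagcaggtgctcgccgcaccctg
Plaur, chr7:24462233-24462482, plus strand: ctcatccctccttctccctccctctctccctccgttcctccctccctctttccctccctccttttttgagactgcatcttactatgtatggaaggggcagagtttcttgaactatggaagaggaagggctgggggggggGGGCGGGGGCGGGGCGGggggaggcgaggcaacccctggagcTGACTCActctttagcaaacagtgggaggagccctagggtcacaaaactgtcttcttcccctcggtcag
Anxa1, chr19:20390672-20390921, minus strand: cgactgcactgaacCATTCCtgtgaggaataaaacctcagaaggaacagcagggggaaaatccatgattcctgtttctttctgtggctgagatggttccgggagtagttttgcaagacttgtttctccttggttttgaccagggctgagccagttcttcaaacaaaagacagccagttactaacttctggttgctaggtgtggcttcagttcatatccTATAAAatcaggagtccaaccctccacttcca

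The *Areg* sequence held a cyclic AMP response element, TGACGTCA, from base -61 to -54 before the start. This motif was in 1.55% of the 32851 mouse promoters of the same length. A GGGCGG box, the core of Sp1 sites, began at -52 and a TATAAA box at -31, which occurred in 32.7% and 12.4% of all promoters. *Plaur* had no TATAAA box. It held 3 overlapping or adjoining GGGCGG boxes between -111 and -95 and an AP-1 motif, TGANTCA, from -69 to -63, which 6.75% of promoters hold. *Anxa1* had a TATAAA box at -32 and, on the opposite strand, the TEAD core GGAATG from -236 to -231, found in 12.6% of promoters. In *Tgfa*, GGGCGG boxes stood at -126 and, on the opposite strand, at -15. The interferon motif TTCNNNGAA, present in 7.02% of all promoters, was in none of these 4. No match overlapped another except the *Plaur* GGGCGG boxes, which share base -100. CpG dinucleotides, the letters that Mbd2 binds when methylated, numbered 19 for *Tgfa*, 15 for *Areg*, 6 for *Plaur* and 2 for *Anxa1*, against a median of 6 over all promoters (quartiles 2 and 16). These are matches of letters, and methylation and binding were not measured in these samples.

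**Figure D1:**
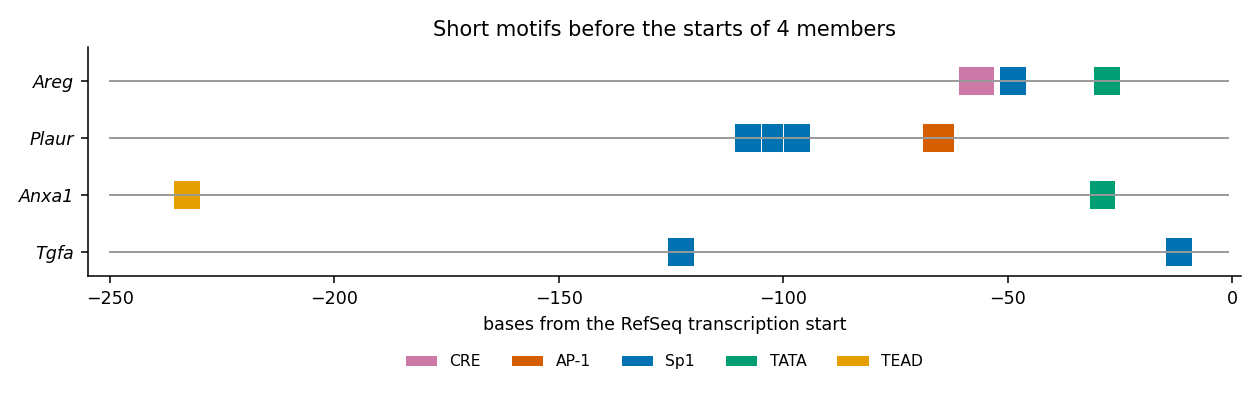
Positions of the searched motifs in the 250 bases before the transcription starts of *Areg*, *Plaur*, *Anxa1* and *Tgfa*, with the distance from the start in bases on the horizontal axis and motif types by color. The cyclic AMP response element (CRE) is in *Areg* alone and the AP-1 motif in *Plaur* alone among the 4, and the TATA boxes of *Areg* and *Anxa1* begin at -31 and -32.

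Sorted cells carried the epithelial program in every sample. All 13 epithelial markers, such as *Epcam*, *Cdh1* and *Krt20*, were detected on all 18 arrays, and their summed normalized signal (linear scale) spanned 101000 to 124000 over the 16 samples. RNA of other cells was present too. All 8 fibroblast markers, 8 of 9 endothelial, 6 of 7 smooth muscle and 7 of 11 myeloid markers were detected on every array, whereas *Itgam*, *Cxcr2*, *Mmp8*, *Ngp*, *Cd8a*, *Gzmb*, *Ms4a1* and *Cnn1* were detected on none. Between 18851 and 20618 probes were detected per array.

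*Ly6a* showed the largest differences of the 6 tested genes. Signals are log2 values after background correction and normalization, and they cannot be set against those of another probe. In Naive_WT the 4 samples had 10.96, 11.12, 11.20 and 11.35, in Naive_KO 12.07, 12.67, 12.75 and 13.57. In DSS_WT they had 12.57, 13.22, 13.32 and 13.33, and in DSS_KO 13.64, 13.86, 14.16 and 14.20. The means rose in the order Naive_WT, Naive_KO, DSS_WT and DSS_KO (11.16 ± 0.161, 12.77 ± 0.614, 13.11 ± 0.361 and 13.96 ± 0.267, SD, n = 4 each). Naive_KO and DSS_WT overlapped, and the other neighbours in this order did not. The signal came from a probe at chr15:74825415-74825464 on the minus strand, as the array's annotation places it without naming its genome build. In such bulk samples a change in the number of cells that express a gene and a change in the RNA per cell cannot be told apart.

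Without DSS, *Ly6a* was 3.05-fold higher in Mbd2KO than in WT (log2 fold change 1.61 ± 0.246 SE, limma adjusted p = 0.0017). With DSS the difference was 1.81-fold (0.86 ± 0.246), every DSS_KO sample lay above every DSS_WT sample, and the adjusted p was 0.0513 (0.0189 to 0.176 over 26 alternatives, under 0.05 in 7). DSS raised *Ly6a* 3.86-fold in WT (1.95 ± 0.246, adjusted p = 0.000359) and 2.29-fold in Mbd2KO (1.20 ± 0.246, adjusted p = 0.00685). The response to DSS differed between genotypes by -0.75 (95% confidence interval -1.49 to -0.02), which did not pass the test over all probes (adjusted p = 0.454). The rise in DSS_KO over Naive_KO was not called when DSS_KO 5, 7 or 8 or Naive_KO 14, 15 or 16 was left out, with adjusted p between 0.0171 and 0.027, and the Naive_KO call was lost in a fit to the naive samples alone (adjusted p = 0.0192, range over 26 alternatives 0.000243 to 0.0192). *Ly6a* is also expressed by endothelial cells and leukocytes. The summed level of the 11 myeloid markers was 1730 to 2440 in Naive_WT, 1910 to 3980 in Naive_KO, 3480 to 6690 in DSS_WT and 5120 to 6010 in DSS_KO. The 9 endothelial markers summed to 1120 to 1670, 838 to 1020, 1380 to 2090 and 775 to 1180 in the same groups. The part of leukocyte and endothelial RNA in the *Ly6a* differences was not tested.

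**Figure D2:**
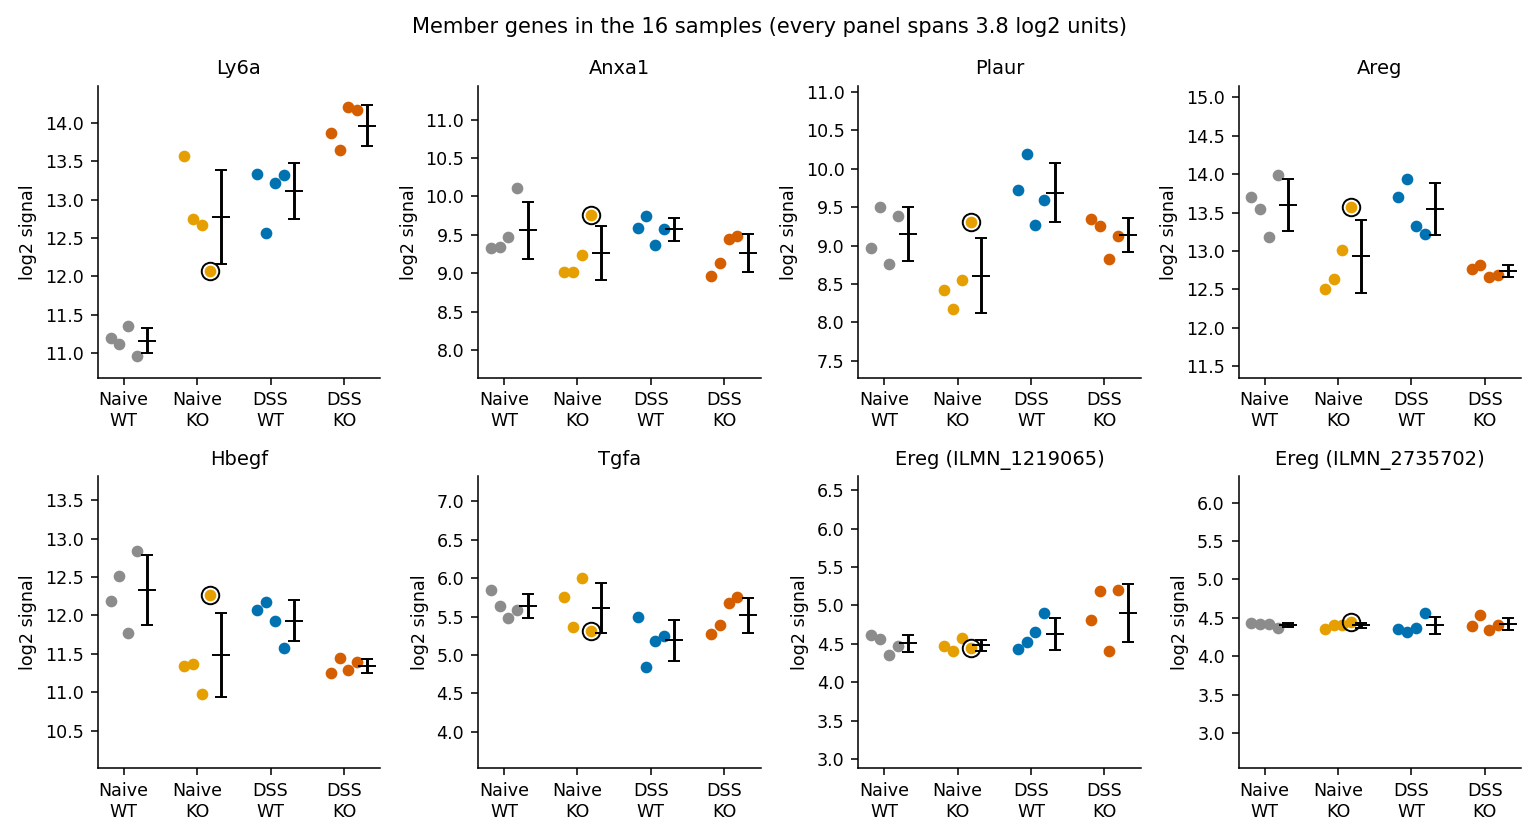
Log2 signal of each probe of the 7 genes on the array in the 16 samples by group, with the mean and SD (n = 4) beside the points and a ring around Naive_KO replicate 16. *Ly6a* climbs from 11.16 in Naive_WT to 13.96 in DSS_KO, *Areg* and *Hbegf* lie lower in DSS_KO than in every DSS_WT sample, and both *Ereg* probes stay between 4.32 and 5.20.

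Genes whose values ran most like those of *Ly6a* over the 16 samples were *Ido1* (r = 0.974), *Psmb10* (r = 0.963) and *Igtp* (r = 0.962). *Ido1*, listed on the array as Indo, encodes a tryptophan-degrading enzyme, *Psmb10* a subunit of the immunoproteasome and *Igtp* a GTPase induced by interferon-gamma. Mean *Ido1* signal was 4.67 in Naive_WT, 9.10 in Naive_KO, 9.44 in DSS_WT and 12.46 in DSS_KO, the same order of groups as for *Ly6a*. The other genes had Naive_KO above DSS_WT, with 12.12 and 12.04 for *Psmb10* and 9.65 and 9.54 for *Igtp*. The Naive_KO samples ranged from 8.01 to 11.07 for *Ido1* and from 8.22 to 11.23 for *Igtp*. These correlations include the differences between groups and are descriptions over samples that share arrays and normalization.

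Among the other members of the Ly6 family, 9 genes were tested. *Ly6c1*, a surface protein of leukocytes and endothelium, was the 1 called gene in each DSS comparison. It rose by 1.71 ± 0.371 in WT (adjusted p = 0.00861) and by 2.01 ± 0.371 in Mbd2KO (adjusted p = 0.0034), from 8.50 to 10.20 and from 9.00 to 11.01 on the log2 scale. The call in WT ended without background correction (adjusted p = 0.014) and with an offset of 50 (adjusted p = 0.01 after rounding). Median scaling also called *Ly6d*, named after its values were seen, higher with DSS in Mbd2KO (1.28, adjusted p = 0.00556, and 1.05 otherwise). Between genotypes none of the 9 was called, and the median log2 fold change was 0.224 without DSS and 0.186 with it, against -0.0101 and -0.0193 over the 15757 genes tested. The Ly6 genes are close in sequence, and whether the *Ly6a* probe also binds its relatives was not tested.

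*Anxa1*, a phospholipid-binding protein that limits inflammation and aids wound closure, varied little. Naive_WT samples had 9.33, 9.34, 9.47 and 10.11 and Naive_KO samples 9.01, 9.02, 9.24 and 9.76. With DSS, WT samples had 9.37, 9.58, 9.59 and 9.74 and Mbd2KO samples 8.97, 9.13, 9.45 and 9.49. All groups overlapped. DSS made a difference of 0.00928 in WT (95% confidence interval -0.40 to 0.42) and 0.00278 in Mbd2KO (-0.40 to 0.41), and Mbd2KO minus WT was -0.30 (-0.71 to 0.10) without DSS and -0.31 (-0.72 to 0.10) with it. The probe is at chr19:20449761-20449810. Of 10 other annexins tested, none was called in any comparison, and their median was -0.447 for DSS_KO against DSS_WT, -0.150 for Naive_KO against Naive_WT, and 0.124 and 0.133 for DSS in WT and Mbd2KO (-0.0193, -0.0101, 0.00742 and -0.0101 over all genes). Median scaling called *Anxa13* lower in DSS_KO than in DSS_WT (-1.21, adjusted p = 0.0054) and *Anxa8* higher in DSS_WT than in Naive_WT (1.42, adjusted p = 0.00647), both named after their values were seen.

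*Areg* encodes amphiregulin, a ligand known for its part in epithelial repair, and its signal was lower in Mbd2KO with DSS. Values in DSS_WT were 13.22, 13.33, 13.70 and 13.94, and in DSS_KO 12.66, 12.69, 12.77 and 12.82. The DSS groups did not overlap, and the SD of the 4 DSS_KO samples was 0.0745 against 0.336 in DSS_WT. Without DSS, WT samples had 13.18, 13.55, 13.70 and 13.99 and Mbd2KO samples 12.51, 12.64, 13.01 and 13.57. Here 3 of 4 Mbd2KO samples lay below every WT sample and replicate 16 lay among them. Mbd2KO minus WT was -0.81 ± 0.218 with DSS (0.57-fold, adjusted p = 0.0393 by limma) and -0.67 ± 0.218 without it (0.627-fold, adjusted p = 0.0811). DSS itself made a difference of -0.06 in WT (95% confidence interval -0.52 to 0.40) and -0.20 in Mbd2KO (-0.66 to 0.27), which turned to 0.19 and 0.22 when arrays were scaled to a common median, a scaling under which the medians of all probes were 0.24 and 0.23, against -0.0101 and -0.0159 before. Both genotype differences were negative in all alternative settings, and the adjusted p with DSS ranged from 0.0162 to 0.133 over 26 alternatives, under 0.05 in 17. It was above 0.05 without DSS_WT 1 or 2, without any 1 of the 4 DSS_KO samples, without Naive_WT 10, without background correction and without the detection filter. The probe is at chr5:91577301-91577350.

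*Hbegf*, heparin-binding EGF-like growth factor, had the same direction. DSS_KO samples had 11.25, 11.29, 11.39 and 11.44, all below the DSS_WT samples with 11.57, 11.93, 12.07 and 12.18. Naive_WT samples had 11.77, 12.19, 12.51 and 12.84 and Naive_KO samples 10.98, 11.34, 11.37 and 12.27, with replicate 16 again apart from the rest of its group. Mbd2KO minus WT was -0.59 ± 0.242 with DSS (adjusted p = 0.159) and -0.84 ± 0.242 without it (adjusted p = 0.0553), and neither passed. The group means fell in the order Naive_WT, DSS_WT, Naive_KO and DSS_KO (12.33, 11.93, 11.49 and 11.34), with each neighbouring pair overlapping. DSS minus naive was -0.39 in WT (95% confidence interval -0.90 to 0.12) and -0.15 in Mbd2KO (-0.66 to 0.37), which became -0.01 and 0.26 under scaling to a common median. The probe lies at chr18:36664989-36665038.

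*Tgfa*, transforming growth factor alpha, was close to background and detected on 17 of 18 arrays. Its samples spanned 4.85 to 6.00 over all groups, the groups overlapped, and DSS minus naive in WT was -0.45 ± 0.170 (adjusted p = 0.105). The array 5 and its repeat 5R differed by 0.57, more than any of the 4 differences between groups. *Ereg*, epiregulin, was read by 2 probes that were detected on 0 and on 3 of 18 arrays, 1 of DSS_WT and 2 of DSS_KO. Probe ILMN_1219065 had 4.36 to 4.61 in Naive_WT, 4.41 to 4.58 in Naive_KO, 4.43 to 4.90 in DSS_WT and 4.41 to 5.20 in DSS_KO. Near background these values have little order. In a fit without the detection filter, differences lay between -0.03 and 0.43 in the 4 comparisons, with a smallest adjusted p of 0.149 for DSS_KO against Naive_KO. No probe carried the symbol *Clu*. A locus described as similar to clusterin, LOC100046120, was detected on all arrays, and its differences lay between -0.22 and 0.25 in the 4 comparisons with adjusted p of 0.576 or more.

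*Plaur*, the receptor that holds urokinase at the cell surface, had positive differences for DSS and negative ones for the loss of Mbd2. Its samples had 8.76, 8.97, 9.38 and 9.50 in Naive_WT, and 8.17, 8.42, 8.55 and 9.31 in Naive_KO. With DSS they had 9.27, 9.59, 9.73 and 10.19 in WT and 8.82, 9.13, 9.25 and 9.34 in Mbd2KO. All neighbouring groups overlapped. DSS minus naive was 0.54 ± 0.238 in WT and 0.52 ± 0.238 in Mbd2KO, and Mbd2KO minus WT was -0.54 ± 0.238 without DSS and -0.56 ± 0.238 with it. None of the 4 passed over all probes (adjusted p = 0.156, 0.187, 0.188 and 0.176). The mean of DSS_KO, 9.14, was next to that of Naive_WT, 9.15.

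**Figure D3:**
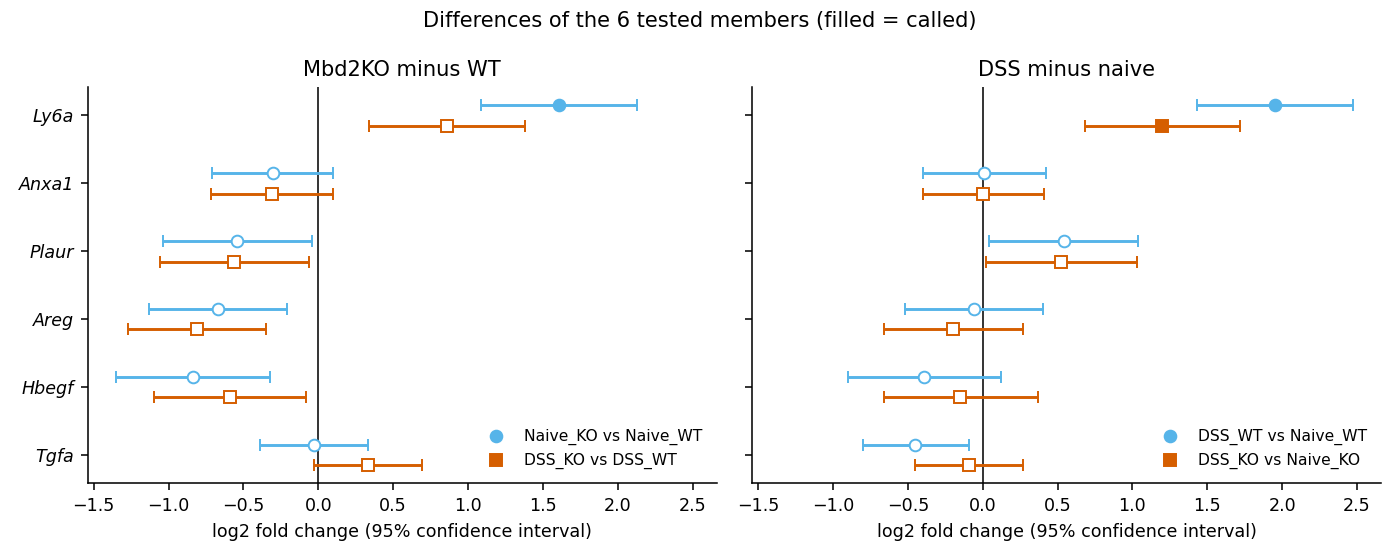
Log2 fold changes of the 6 tested genes with 95% confidence intervals, Mbd2KO minus WT on the left and DSS minus naive on the right, with filled symbols for called differences. *Ly6a* is called in 3 of the 4 comparisons. *Areg*, *Hbegf*, *Plaur* and *Anxa1* lie below 0 in both genotype comparisons, where only *Areg* with DSS had an adjusted p under 0.05 among them.

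Counted together, 1 of the 6 tested genes, *Ly6a*, was called (adjusted p under 0.01 and at least 1 log2 unit) in each comparison except that of DSS_KO with DSS_WT, where none was. Of all 21938 probes tested, 0.656% were called for Naive_KO against Naive_WT, 0.862% for DSS_KO against DSS_WT, 1.74% for DSS_WT against Naive_WT and 1.72% for DSS_KO against Naive_KO. When any size of change counted, at an adjusted p below 0.05, 1 of 6 passed in each comparison, *Areg* for DSS_KO against DSS_WT and *Ly6a* in the others. The shares of all probes were 5.63% for DSS_KO against DSS_WT, 5.19% for Naive_KO against Naive_WT, 10.5% for DSS_WT against Naive_WT and 9.42% for DSS_KO against Naive_KO. The groups did not overlap for 3 of 6 genes (*Ly6a*, *Areg* and *Hbegf*) between DSS_KO and DSS_WT, against 14.7% of all probes. In the other 3 comparisons this held for *Ly6a* alone, against 12.3% between Naive_KO and Naive_WT, 17% between DSS_WT and Naive_WT and 15.9% between DSS_KO and Naive_KO. At an unadjusted p under 0.05, limma had 4 of 6 genes between DSS_KO and DSS_WT (22.2% of all probes), 4 between Naive_KO and Naive_WT (22.8%), 3 between DSS_WT and Naive_WT (26.3%) and 2 between DSS_KO and Naive_KO (24.5%). For the difference between the genotype effects, 0% of probes were called and 0% had an adjusted p under 0.05, with 2339 probes (10.7%) and 1 of the 6 genes at an unadjusted p under 0.05.

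Naive_KO replicate 16 stood apart. It was the highest of its group for *Areg*, *Hbegf*, *Plaur* and *Anxa1*, and the lowest for *Ly6a*. Its myeloid markers summed to 1910, against 2710 to 3980 in the other 3 Naive_KO samples, its B and plasma cell markers to 169 against 341 to 460, and its smooth muscle markers to 8600 against 6430 to 6860. It was also the highest for endothelial (1020 against 838 to 964), epithelial (124000 against 110000 to 120000) and T and NK cell markers (270 against 242 to 259), and within the range of the others for fibroblast and neutrophil markers. Without this sample, *Ly6a* differed by 1.84 (adjusted p = 0.000243), *Hbegf* by -1.10 (adjusted p = 0.00613), *Areg* by -0.89 (adjusted p = 0.0154) and *Plaur* by -0.77 (adjusted p = 0.0427) between Naive_KO and Naive_WT. Replicate 16 was the Naive_KO sample nearest to Naive_WT for these genes, so leaving it out widens these differences by construction. The larger values are no separate support for a difference. In this fit 2 of the 6 genes were called, and the called probes among all 21938 tested rose from 144 to 279. The call of *Ly6a* between DSS_KO and Naive_KO was lost without replicate 16 (0.97, adjusted p = 0.0207).

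Within groups, some pairs of the members varied together or in opposite directions. Each sample was expressed as its deviation from its group mean, and exact two-sided permutations within groups gave p for 15 pairs of genes (n = 16, 331776 permutations). *Areg* and *Plaur* had r = 0.816 (exact p = 0.00341, adjusted over the 15 pairs 0.0256) and rho = 0.765 (exact p = 0.00636, adjusted 0.043). *Areg* and *Ly6a* went opposite ways, with r = -0.802 (exact p = 0.000437, adjusted 0.00656) and rho = -0.668 (exact p = 0.00651, adjusted 0.043). *Areg* and *Hbegf* had r = 0.78 (exact p = 0.0113, adjusted 0.049) and rho = 0.724 (exact p = 0.0143, adjusted 0.043). Leaving out the samples farthest from the median of *Areg*, Naive_KO 16 and Naive_WT 11, gave r = 0.692, -0.734 and 0.587. In all, 6 pairs had an adjusted p under 0.05 by r and 5 by rho. How often pairs of other genes vary together in this way was not tested. The part of cell mixture and shared normalization in these relations was not tested either. *Anxa1* and *Areg* (r = 0.665, exact p = 0.0195, adjusted 0.049; rho = 0.447, exact p = 0.106) fell to r = 0.335 without Naive_WT 12 and Naive_KO 16, so that relation rests on those samples.

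**Figure D4:**
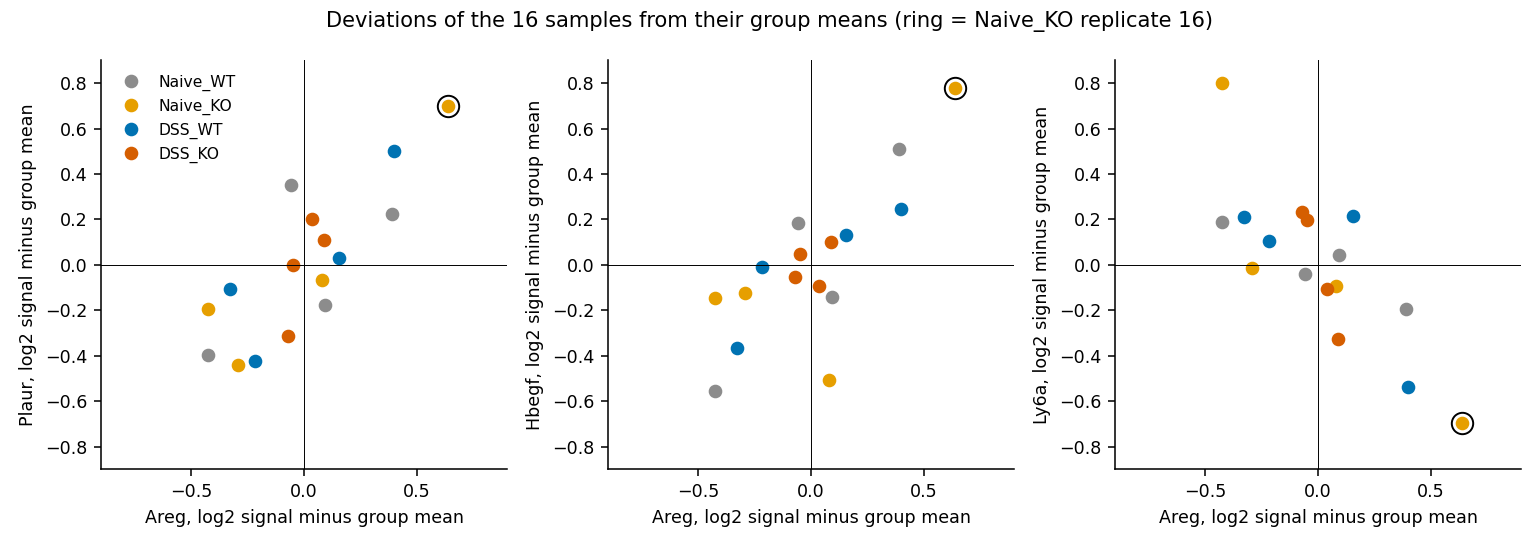
Deviation of each of the 16 samples from its group mean (log2 signal) for *Plaur*, *Hbegf* and *Ly6a* against that of *Areg*, colored by group, with a ring around Naive_KO replicate 16. *Plaur* and *Hbegf* rise with *Areg* (r = 0.816 and 0.78) and *Ly6a* falls (r = -0.802), and the ringed sample is at the end of each cloud.

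Other values ran like single members over the 16 samples. Nearest to *Areg* were *Nipal1* (r = 0.956), a magnesium transporter listed on the array as Npal1, *Acsl3* (r = 0.953), a fatty acid activating enzyme, and *Ocln* (r = 0.944), a protein of tight junctions. Mean *Ocln* signal was 8.63 in Naive_WT, 8.07 in Naive_KO, 8.56 in DSS_WT and 7.92 in DSS_KO. For *Hbegf* the nearest were D630022P03Rik (r = 0.97), the keratin *Krt23* (r = 0.964) and A530021P12Rik (r = 0.939). *Krt23* had means of 10.19, 9.13, 9.63 and 8.85 in the same order of groups. *Plaur* was nearest to *Rbm4b* (r = 0.966), an RNA-binding protein, *Ppp2r2d* (r = 0.964), a subunit of protein phosphatase 2A, and *Zswim4* (r = 0.941). *Anxa1* was nearest to *Jmjd1c* and *Anxa7* (r = 0.847 each) and *Osbp* (r = 0.844), and *Tgfa* to 9030221M09Rik (r = 0.879), *Ube2j2* (r = 0.855) and *Kpna2* (r = 0.851).

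Among the other ErbB ligands, 5 of 6 on the array were tested and *Nrg1*, neuregulin 1, was called in both DSS comparisons. It rose with DSS by 1.18 ± 0.221 in WT (adjusted p = 0.00334) and by 1.14 ± 0.221 in Mbd2KO (adjusted p = 0.00479), from 4.67 and 4.69, near background, to 5.85 and 5.83. It was detected on 10 of 18 arrays. Both calls ended without background correction (0.38 and 0.36, adjusted p = 0.014 and 0.0197) and with an offset of 50 (0.65 and 0.60, adjusted p = 0.00918 and 0.0133). Betacellulin, *Btc*, chosen after its values were seen, was lower in DSS_KO than in DSS_WT by a log2 fold change of -0.85 ± 0.133 (adjusted p = 0.00242) at means of 6.22 and 7.07, just under the limit of size. *Egf*, also chosen after its values were seen, differed with DSS by -0.68 in WT (adjusted p = 0.0386) and -0.82 in Mbd2KO (adjusted p = 0.0155).

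Of 10 ErbB receptors and receptor inhibitors tested, none was called in any comparison. Between DSS_KO and DSS_WT 1 of 10 had an adjusted p under 0.05, *Errfi1*, an inhibitor of EGFR that its signaling induces (-0.76 ± 0.215, adjusted p = 0.0492), chosen after its values were seen. *Egfr* itself, chosen after its values were seen, differed by -0.28 ± 0.122 (adjusted p = 0.19). In WT with DSS, 3 of 10 were lower at an adjusted p under 0.05, the inhibitor *Lrig3* with -0.74 (adjusted p = 0.00553), *Lrig1* with -0.58 (adjusted p = 0.0428) and the ubiquitin ligase *Rnf41* with -0.59 (adjusted p = 0.00302), all 3 chosen after their values were seen. In Mbd2KO the DSS differences were -0.65 for *Lrig3* (adjusted p = 0.0123), -0.27 for *Lrig1* (adjusted p = 0.362) and 0.08 for *Rnf41* (adjusted p = 0.699). Of the 8 genes of ligand shedding, none was called, and 2 were lower in Naive_KO than in Naive_WT at an adjusted p under 0.05. These were *Timp3*, an inhibitor of ADAM17 (-1.21 ± 0.247, adjusted p = 0.0117, groups not overlapping), and the rhomboid protease *Rhbdl2* (-0.56 ± 0.157, adjusted p = 0.0485), both chosen after their values were seen. *Rhbdl2* was higher in DSS_KO than in Naive_KO (0.62, adjusted p = 0.0205). *Adam17*, chosen the same way, differed by 0.05 between DSS_KO and DSS_WT and by 0.32 between Naive_KO and Naive_WT (adjusted p = 0.873 and 0.152).

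Of 16 ERK target and feedback genes none was called. The median log2 fold change of the list was -0.327 for DSS_KO against DSS_WT, with 4 of 16 positive, and -0.0126 for Naive_KO against Naive_WT, against -0.0193 and -0.0101 over all genes. DSS gave a median of 0.254 in WT and -0.103 in Mbd2KO, against 0.00742 and -0.0101 over all genes. Scaling to a common median turned the second to 0.147, where all genes had a median of 0.247, so relative to all genes the list stood at -0.100. This scaling also called *Ier3* higher with DSS in WT (1.17, adjusted p = 0.000155) and *Ccnd1* in Mbd2KO (1.02, adjusted p = 0.00261), which were 0.78 and 0.62 otherwise and are named after their values were seen. A total of 1 gene had an adjusted p under 0.05 between DSS_KO and DSS_WT, the ERK phosphatase *Dusp4*, chosen after its values were seen, with -1.11 ± 0.243 (adjusted p = 0.0148).

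Of 18 other genes of the fetal-like and regenerating epithelium that were tested, none was called higher in Mbd2KO, with or without DSS. *Il1rn*, the antagonist of the interleukin-1 receptor, fell by 1.66 on the log2 scale in DSS_KO against DSS_WT (SE 0.260, adjusted p = 0.00245). *Sprr1a*, a protein of the cornified envelope, fell by 1.93 in Naive_KO against Naive_WT (SE 0.303, adjusted p = 0.002), and the alarmin *Il33* fell by 1.49 (SE 0.273, adjusted p = 0.00621). The *Sprr1a* means were 10.65 in Naive_WT, 8.72 in Naive_KO, 10.66 in DSS_WT and 9.19 in DSS_KO. With DSS, *Ly6c1* and the gap junction protein *Gja1* were called higher in WT and *Ly6c1* in Mbd2KO. This is the *Ly6c1* probe already counted in the Ly6 family, and the part of leukocyte and endothelial RNA in its rise was not tested. *Gja1* rose by 1.07 ± 0.202 in WT (adjusted p = 0.00346). Median scaling called 5 genes higher in WT and 6 in Mbd2KO, and without background correction 0 and 1 were called, the latter *Ly6c1*. Under median scaling the medians of all genes for DSS were 0.272 in WT and 0.247 in Mbd2KO. The fall of *Il33* was not called without background correction (-0.80, adjusted p = 0.0108), which left 1 of the 2 falls without DSS. With DSS, *Sprr1a* differed by -1.47 between Mbd2KO and WT (adjusted p = 0.011), and median scaling called it (-1.59, adjusted p = 0.00569). The medians of the list were 0.290 and 0.360 for DSS in WT and Mbd2KO, and -0.261 and -0.204 for Mbd2KO against WT without and with DSS. Over all genes they were 0.00742, -0.0101, -0.0101 and -0.0193 in the same order. At an adjusted p under 0.05, 5 rose and 1 fell with DSS in WT, 6 rose in Mbd2KO, and 3 and 4 were lower in Mbd2KO without and with DSS. Of all 15757 genes, 986 rose and 718 fell with DSS in WT, and 815 rose and 736 fell in Mbd2KO. Between genotypes 477 and 555 were lower in Mbd2KO without and with DSS, and 378 and 327 were higher.

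Of 16 genes of the YAP and TEAD pathway none was called in any comparison, with medians of 0.211 and 0.0991 for DSS in WT and Mbd2KO and of 0.0157 and -0.170 for Mbd2KO against WT without and with DSS (the first became -0.0718 under scaling to a common median, with -0.0846 over all genes). That scaling called *Axl*, a receptor kinase named after its values were seen, higher with DSS in WT (1.30, adjusted p = 0.000753, and 0.95 otherwise). Around *Plaur*, 14 genes of plasminogen activation and its matrix proteases were tested. DSS in WT raised *Mmp3* (2.31 ± 0.409, adjusted p = 0.00226), *Mmp10* (2.25 ± 0.424, adjusted p = 0.00347) and *Mmp13* (2.04 ± 0.412, adjusted p = 0.00537), proteases of the extracellular matrix. Without background correction none of these was called (0.86 to 1.02, adjusted p = 0.0162 to 0.0192), and with an offset of 50 *Mmp13* was not (adjusted p = 0.0103). In Mbd2KO DSS raised *Mmp3* (2.22), *Mmp10* (2.15) and *Mmp7* (1.66 ± 0.287, adjusted p = 0.00227), also known as matrilysin. *Mmp7* was higher in DSS_KO than in DSS_WT as well (1.57 ± 0.287, adjusted p = 0.00541), with means of 6.66 and 5.09 and detection on 11 of 18 arrays. Without background correction no gene of the list was called in any comparison, with *Mmp7* at 0.63 (adjusted p = 0.016) between DSS_KO and DSS_WT, and with an offset of 50 *Mmp10* was not called in Mbd2KO (1.33, adjusted p = 0.011). Median scaling called *Mmp13* higher with DSS in Mbd2KO too (1.67, adjusted p = 0.00824). Urokinase itself, *Plau*, chosen after its values were seen, rose by 0.66 in WT (adjusted p = 0.00462), under the limit of size.

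**Figure D5:**
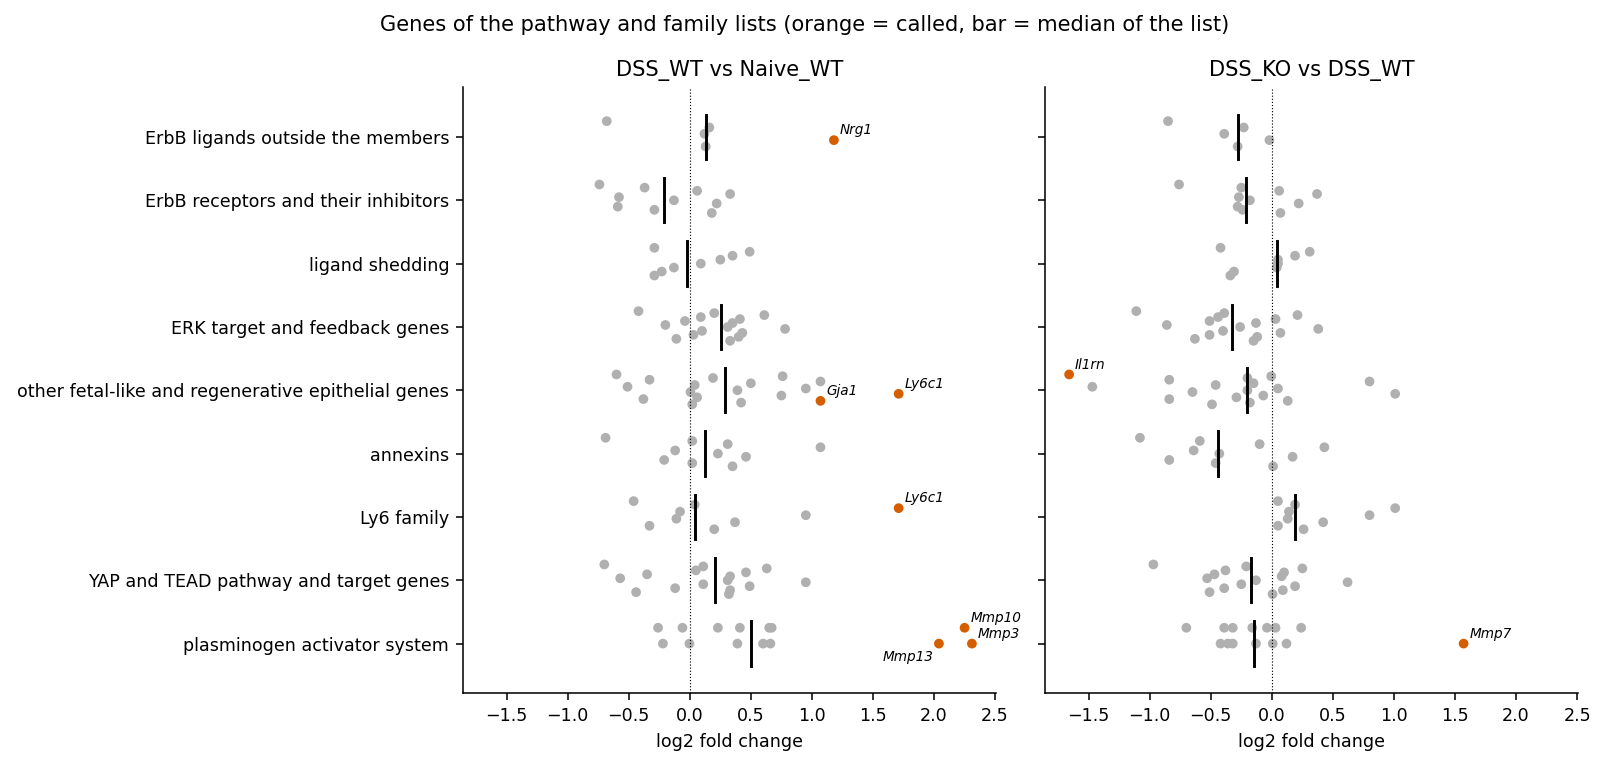
Log2 fold changes of the tested genes of 9 lists, each a row, for DSS_WT against Naive_WT and DSS_KO against DSS_WT, with called genes in orange and named and a bar at each list's median. The called genes are *Nrg1*, *Gja1*, *Ly6c1*, *Mmp3*, *Mmp10* and *Mmp13* on the left and *Il1rn* and *Mmp7* on the right.

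Markers of other cells moved with several of these differences. The 7 smooth muscle markers summed to 4100 to 7520 in DSS_KO against 9480 to 13600 in DSS_WT, and to 6430 to 8600 in Naive_KO against 7670 to 13300 in Naive_WT. Fibroblast markers summed to 3030 to 6030 in Naive_WT, 2990 to 3920 in Naive_KO, 6110 to 7230 in DSS_WT and 4380 to 5130 in DSS_KO. Among them *Pdgfra* (1.38 ± 0.232, adjusted p = 0.00169) and *Lum* (1.05 ± 0.230, adjusted p = 0.00883) were called higher in DSS_WT than in Naive_WT, in the comparison in which *Nrg1*, *Gja1* and the matrix proteases rose. Neither was called without background correction, and the part of fibroblast RNA in those rises was not tested. *Tagln*, *Actg2* and *Myh11* of smooth muscle and *Esam*, *Emcn* and *Eng* of endothelium were called lower in DSS_KO than in DSS_WT, by 1.13 to 1.60 on the log2 scale. Of these 6, *Myh11* alone was called without background correction, with the other log2 fold changes between -1.38 and -0.52. Epithelial markers summed to 104000 to 116000 in DSS_KO and 101000 to 112000 in DSS_WT, and none of the 13 had an adjusted p under 0.05 between them. With DSS, 8 of 9 myeloid markers tested were called higher in WT and 3 in Mbd2KO. These counts were 8 and 8 under median scaling, 5 and 4 with an offset of 50 and 4 and 3 without background correction, and 8 in each genotype had an adjusted p under 0.05. *S100a8* and *S100a9* of neutrophils were called higher with DSS in Mbd2KO, but not without background correction (adjusted p = 0.0218 and 0.0357), and median scaling called both higher with DSS in WT as well (2.94 and 2.37). B and plasma cell and T and NK cell markers had no called gene in any comparison. The part of these cells' RNA in the lower *Areg* and *Hbegf* signals of DSS_KO was not tested.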

How the data were processed

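RNA of sorted colon epithelial cells was measured on 18 arrays (5 of DSS_WT, 5 of DSS_KO, 4 of each naive group). Per the file headers each deposited signal is the mean intensity of a probe's beads, exported with no normalization and no background subtraction, and the deposited detection p-value compares each probe with the array's negative controls. The deposited bead counts and bead standard errors, which are other values, described the arrays only. The submitters' processing notes name lumi and limma.

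Background correction by the negative controls, quantile normalization and log2 transformation were done together (neqc of limma 3.58.1 in R 4.3.3, offset 16). The median signal of an array was 106 to 146 intensity units and the mean of its negative controls 101 to 134, so most probes were near background. Arrays 4R and 5R were averaged with 4 and 5, because the SD of their log2 differences over detected probes (0.194 and 0.236) was below that of all other pairs of their groups (0.287 to 0.482). To be tested, a probe needed detection p-values below 0.05 on 4 or more arrays (21938, 23343 left out). The 16 samples entered 1 limma model of group means (12 residual and 4.71 prior degrees of freedom), two-sided, with Benjamini-Hochberg adjustment within each comparison over all tested probes. A probe was called at an adjusted p under 0.01 and an absolute log2 fold change of 1 or more, the thresholds of the study's methods. The fit was tested on simulated data with known changes.

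Genes were named by a rule: all members, at most 3 called rises and 3 called falls per list and comparison, and the 3 genes with the highest Pearson r to each tested member, 1 probe per gene (the brightest). Others are said to be chosen after their values were seen. The members, lists and tests were chosen with earlier results of these data known. Symbols were updated through Entrez identifiers (RefSeq, GRCm38.p6). Probe positions are the file's, whose build is not given in the sources used here. Within-group relations used exact permutations (scipy 1.17.1). The number of arrays limits the precision. The alternatives were the repeat arrays kept apart or left out, no background correction, median scaling, another offset, no or a stricter detection filter, fits to 2 groups alone, a robust prior, array weights, and each sample left out.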

Additional observations from a re-analysis of the deposited data

Results flagged for a closer look

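In 3 of the 36 combinations of a probe and a group, 1 sample lay far from the other 3, measured as its gap to the nearest sample over the range of the group and set against Dixon's 95% critical value. Chance flags about 1 in 20 such groups. For *Ly6a* in DSS_WT the ratio was 0.854, with replicate 2 at 12.57 against 13.22 to 13.33 in the other samples. The same replicate was the highest of its group for *Areg* (13.94), *Hbegf* (12.18), *Plaur* (10.19) and *Anxa1* (9.74). For *Ereg* probe ILMN_2735702 in Naive_WT the ratio was 0.831, with replicate 12 at 4.37 against 4.42 to 4.43, a probe that was detected on no array. For the locus similar to clusterin, LOC100046120, in Naive_KO the ratio was 0.912, with replicate 16 at 9.11 against 8.62 to 8.66.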

How the results depend on the processing

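Of 774 values under alternative settings, 721 kept their direction and their side of the threshold, 43 changed sign (none of a called difference), 9 lost a call and 1 gained one. The number of called probes for DSS_KO against DSS_WT was 189, and it was 420 with all 18 arrays as separate replicates, 48 without background correction, 109 with an offset of 50 and 86 without the detection filter. For Naive_KO against Naive_WT it went from 144 to 54 without background correction, 90 without the filter and 39 in a fit to those groups alone. For DSS_WT against Naive_WT it went from 382 to 84 without background correction, 660 under median scaling and 186 with an offset of 50, and for DSS_KO against Naive_KO from 377 to 113, 721 and 215, and to 227 without the filter. Leaving out 1 sample gave 46 to 216, 73 to 279, 233 to 477 and 181 to 461 called probes in the 4 comparisons. Members called numbered 0 in the fit to Naive_KO and Naive_WT alone, 0 for DSS_KO against Naive_KO without the filter and in the fit to those groups alone, and 1 to 2 and 0 to 1 in these comparisons with 1 sample left out. *Ly6a* in DSS_KO against Naive_KO had an adjusted p of 0.0175 without the filter and 0.0241 in the fit to those groups alone. The cause was not tested.

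Median scaling moved the share of called probes that were higher from 58.2 to 41.9% for DSS_KO against DSS_WT, 77.0 to 94.7% for DSS_WT against Naive_WT and 62.3 to 87.4% for DSS_KO against Naive_KO, with *Plaur* at 0.94 (adjusted p = 0.0183) and 0.88 (adjusted p = 0.0272) for DSS in WT and Mbd2KO. Under it *Areg* was 0.19 for DSS in WT and 0.22 in Mbd2KO, *Hbegf* 0.26 and *Tgfa* 0.11 in Mbd2KO, and the *Areg* difference of genotype effects 0.03. With array weights *Tgfa* was 0.05 for DSS in Mbd2KO, and the differences of genotype effects were 0.04 for *Anxa1* and 0.19 for *Plaur*. With all 18 arrays apart *Anxa1* was -0.06 for DSS in Mbd2KO and the *Plaur* difference of genotype effects 0.04, and without the repeat arrays *Anxa1* was -0.00536. With 1 sample left out, values that changed sign ranged from -0.16 to 0.07 for *Tgfa* in Naive_KO against Naive_WT, -0.07 to 0.19 for *Anxa1* and -0.20 to 0.07 for *Areg* for DSS in WT, and -0.08 to 0.17 for *Anxa1*, -0.34 to 0.02 for *Areg*, -0.32 to 0.11 for *Hbegf* and -0.19 to 0.04 for *Tgfa* for DSS in Mbd2KO. The differences of genotype effects ranged from -0.19 to 0.16 for *Anxa1*, -0.28 to 0.08 for *Areg* and -0.17 to 0.22 for *Plaur*. No paired analysis was possible because the groups share no replicate numbers. The chip as a block was not run, since the headers give no chip. *Tgfa* and *Ereg* were near background, and how small a difference could be detected in them was not tested.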
